A study of Mus musculus with 24 samples.

Results

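The genes described are *Xdh*, an enzyme of purine breakdown, and 9 enzymes that make nucleotides, 5 for purines (*Ppat*, *Gart*, *Paics*, *Atic* and *Impdh2*) and 4 for pyrimidines (*Cad*, *Dhodh*, *Umps* and *Ctps*). These 10 genes were found by name among 49315 in the count table, and all 10 passed the filter on low counts with which 16070 genes were tested. The list was chosen with earlier results of these libraries known, so the values of its members are given as a description, with standard errors (SE) and the overlap of libraries but without *P* values. Numbers of members past a threshold stand only beside the share of all genes past it. Other genes of nucleotide metabolism, from 9 lists of 77 genes, were tested. The lists of other genes were also chosen with earlier results known, so their adjusted p values and counts carry that choice.

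RNA was from MS03, a line of murine Schwann cells (SCs) given with the genotype *Nf2*-/-. By that genotype, DMSO-treated and drug-treated cells all lack *Nf2*, the gene lost in NF2-related schwannomatosis. As 1 line grown in culture, it models SCs without the other cells of a tumor. Before RNA was taken, cells spent 24 hours in dimethyl sulfoxide (DMSO, the solvent), in a kinase inhibitor of focal adhesion kinase (FAK), namely defactinib, VS-4718, GSK2256098 or ifebemtinib (named IN10018 in the sample labels), each at 1 μM, or in a FAK-targeting PROTAC, namely PROTAC FAK Degrader 1 at 1 μM, GSK215 at 0.1 μM or BSJ-04-146 at 0.1 μM. A PROTAC is a molecule that binds its target and a ubiquitin ligase at once, so that the target is degraded. Each of the 8 groups had 3 libraries, labelled as biological replicates, giving 24 libraries.

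Total counts per library ranged from 14472462 to 27449516. The 9 PROTAC libraries were shallower (14472462 to 21588406) than the other 15 (from 21654444). *Nf2* had 2360 to 5066 counts per library, and since whole-gene counts do not resolve single exons, its loss was not checked. Of 10 SC markers, all exceeded 3 counts in at least 1 library, with a summed level of 40.3 to 42.9 CPM (counts scaled to library size) in DMSO libraries and 28.0 to 215 in drug libraries, but *S100b*, *Gfap* and *Egr2* were among those that stayed under a mean of 1 CPM in every group. All 4 T cell markers, 3 of 7 macrophage markers (*Ptprc*, *Adgre1* and *Itgam*), 3 of 5 fibroblast markers (*Dcn*, *Lum* and *Dpt*), 2 of 4 endothelial markers (*Cdh5* and *Kdr*) and 2 of 4 neuron markers (*Rbfox3* and *Snap25*) were at 3 counts or fewer in every library. Those with group means above 1 CPM were *Col1a1* (286 to 474 CPM) and *Pdgfra* (8.76 to 26.3) of the fibroblast list, *Cd68* (3.35 to 10.9) of the macrophage list and *Tubb3* (2.79 to 4.57) of the neuron list. Whether the change in these markers had a part in the results was not tested.

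Cells build purines stepwise on activated ribose phosphate, ending in inosine monophosphate, from which adenine and guanine nucleotides are made. Pyrimidines are built as a free ring that is then joined to ribose phosphate, giving uridine monophosphate and, from it, cytidine nucleotides. Xanthine dehydrogenase, the product of *Xdh*, works at the other end of the purine pathway, oxidizing hypoxanthine to xanthine and xanthine to uric acid with the help of a molybdenum cofactor. Dividing cells use the synthesis pathways heavily, since RNA and DNA are made from their products.

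*Xdh* (ENSMUSG00000024066) lies on the minus strand at chr17:73883895-73950196 of GRCm38 in GENCODE M21. In DMSO-treated cells, it was scarce, at 3.21, 2.59 and 3.05 CPM in the 3 libraries, which is 2.95 ± 0.320 CPM (SD, n = 3) and rests on 69 to 74 counts per library. With PROTAC FAK Degrader 1, the libraries had 22.5, 23.8 and 20.0 CPM, and with GSK215 they had 24.2, 26.0 and 22.6 CPM. BSJ-04-146 gave 33.7, 36.8 and 34.9 CPM. *Xdh* was thus higher in all 9 PROTAC libraries than in any library of DMSO or of a kinase inhibitor, and its raw counts, 369 to 678 in the PROTAC libraries and 62 to 171 in the others, did not overlap although the PROTAC libraries were the shallower ones.

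The log2 fold changes of *Xdh* against DMSO, from edgeR's quasi-likelihood model, were 2.91 ± 0.109 (SE) for PROTAC FAK Degrader 1, 3.04 ± 0.109 for GSK215 and 3.58 ± 0.104 for BSJ-04-146, corresponding to 7.53-, 8.25- and 11.9-fold. Among the kinase inhibitors, VS-4718 gave 5.26, 7.47 and 5.92 CPM and a log2 fold change of 1.07 ± 0.131. GSK2256098 gave 4.51, 4.197 and 4.70 CPM (0.60 ± 0.142), and ifebemtinib gave 4.43, 3.83 and 4.02 CPM (0.48 ± 0.147). In each of these 3 groups every library lay above every DMSO library. With defactinib, at 2.70, 3.68 and 3.58 CPM, the libraries overlapped those of DMSO, and the log2 fold change was 0.18 ± 0.151. On the log2(CPM + 4) scale, which compresses low levels, the log2 fold changes were smaller, at 1.91, 2.02 and 2.49 for the 3 PROTACs in the same order and 0.55 for VS-4718, 0.29 for GSK2256098 and 0.22 for ifebemtinib. In bulk RNA, a change in the level per cell and a change in the share of cells that express a gene cannot be told apart.

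**Figure D1:**
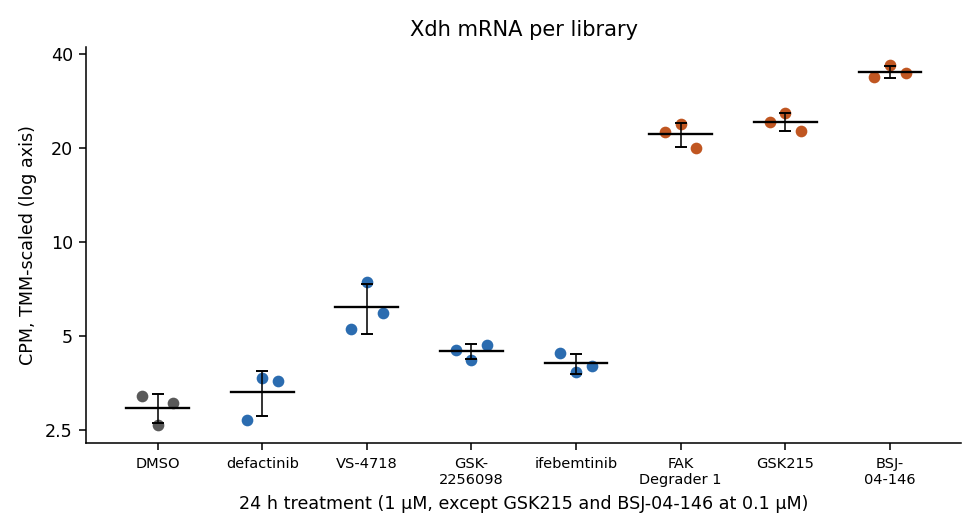
*Xdh* in each library (points; CPM from TMM-scaled library sizes, log axis) by 24-hour treatment, with the mean and SD of 3 libraries (bars). DMSO libraries sit between 2.59 and 3.21 CPM, kinase inhibitor libraries reach 7.47 CPM, and PROTAC libraries (orange) sit between 20.0 and 36.8 CPM.

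In order of mean level, the groups were DMSO, defactinib (3.32 ± 0.539 CPM), ifebemtinib (4.09 ± 0.306), GSK2256098 (4.47 ± 0.254), VS-4718 (6.22 ± 1.13), PROTAC FAK Degrader 1 (22.1 ± 1.95), GSK215 (24.3 ± 1.68) and BSJ-04-146 (35.1 ± 1.54). Overlapping libraries were seen for neighboring groups in 3 cases, DMSO and defactinib, ifebemtinib and GSK2256098, and PROTAC FAK Degrader 1 and GSK215, and for no other neighbors. At the matched dose of 1 μM, *Xdh* with PROTAC FAK Degrader 1 exceeded that with defactinib by 2.73 ± 0.108 on the log2 scale (95% interval 2.51 to 2.95). At 0.1 μM, the log2 difference of GSK215 from BSJ-04-146 was −0.53 ± 0.078 (95% interval −0.69 to −0.38), with every GSK215 library below every BSJ-04-146 library. The dose of PROTAC FAK Degrader 1 was higher than that of the other PROTACs, so in this order and for the genes that follow its values only stand beside theirs, and no difference between them was tested.

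Per kilobase of exon, *Xdh* was the least abundant of the 10 genes in DMSO-treated cells, at 0.322 ± 0.0349 RPKM (CPM divided by exon length in kilobases; SD, n = 3). *Dhodh* followed at 7.25 RPKM, then *Ppat* at 25.9, *Umps* at 43.6, *Gart* at 54.3, *Atic* at 57.7, *Ctps* at 61.7, *Cad* at 75.6, *Paics* at 97.8 and *Impdh2* at 103 RPKM. With BSJ-04-146, where it was highest, *Xdh* reached 3.83 ± 0.168 RPKM, still under the 5.37 ± 0.563 RPKM of *Dhodh* in the same cells.

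The genes whose log2 CPM followed that of *Xdh* most closely over the 24 libraries, among 10087 genes ranked, were *Tpm2* (Pearson *r* = 0.978), *Speg* (0.977), *Gabarap* (0.977), *Ctps2* (0.975) and *Amdhd2* (0.975). These libraries share treatment groups, so the *r* values describe a common pattern of group means and carry no *P* value. *Tpm2*, a tropomyosin, had a mean of 16.6 CPM in DMSO, 35.9 with PROTAC FAK Degrader 1, 33.4 with GSK215 and 44.99 with BSJ-04-146. *Ctps2*, which encodes a second cytidine triphosphate synthase beside *Ctps*, had 32.5, 41.9, 42.0 and 46.8 CPM in the same groups.

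The 9 synthesis enzymes were mostly lower with PROTACs. Log2 fold changes with PROTAC FAK Degrader 1 ran from −1.03 (*Umps*) to 0.14 (*Dhodh*), with a median of −0.50. With GSK215 they ranged from −0.73 (*Atic*) to −0.28 (*Paics*), median −0.55, and with BSJ-04-146 from −0.72 (*Atic*) to −0.21 (*Paics*), median −0.55. The median over all 16070 genes was 0.0045, 0.021 and 0.018 for the 3 drugs. On TMM-scaled levels, every library of GSK215 and of BSJ-04-146 lay below every DMSO library for all 9 enzymes. With PROTAC FAK Degrader 1 this held for 8, *Dhodh* being the exception, and among these *Paics* changed sign with library totals. The share of all genes that separated from DMSO in this way was not counted, so nothing is read from these numbers. All 3 drugs were set against the same DMSO libraries. Every enzyme had at least 509 counts in every library, and whether the lower depth of the PROTAC libraries had a part in its level was not tested.

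At an adjusted p under 0.05, PROTAC FAK Degrader 1 lowered 7 of the 9 enzymes and raised 1, beside 32.7% of all genes lowered and 34.1% raised. GSK215 lowered all 9, beside 27.2% lowered and 27.4% raised, and BSJ-04-146 lowered all 9, beside 26.9% lowered and 27.7% raised. For the kinase inhibitors, the number lowered was 7 with defactinib (11.0% of all genes lowered and 11.4% raised), 6 with VS-4718 (18.9% and 20.4%), 4 with GSK2256098 (6.09% and 6.36%) and 2 with ifebemtinib (6.85% and 6.44%). With library totals, VS-4718 raised 2 and lowered 5 of the enzymes, beside 4015 genes raised and 2394 lowered of 16070. GSK2256098 then lowered 3, beside 1242 genes raised and 808 lowered. As the members were selected on these results, nothing is read from their counts.

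**Figure D2:**
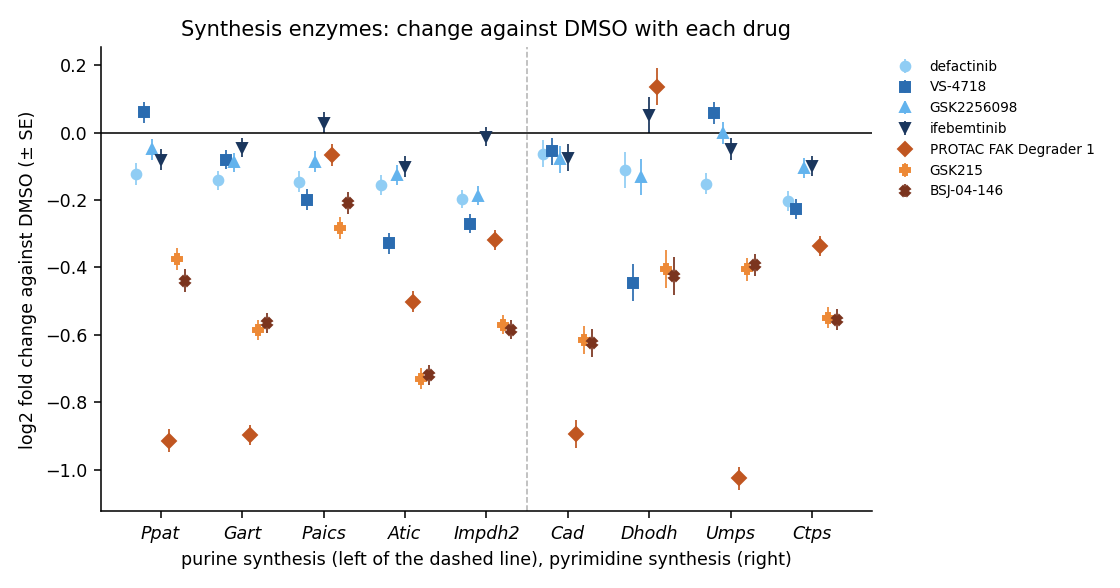
Log2 fold change against DMSO (points, ± SE from edgeR, 3 libraries a group) of the 9 synthesis enzymes with each of 7 drugs. PROTAC FAK Degrader 1 (diamonds) spreads from −1.03 for *Umps* to 0.14 for *Dhodh*. GSK215 and BSJ-04-146 (crosses) lie between −0.73 and −0.21.

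*Ppat* (ENSMUSG00000029246, minus strand, chr5:76913249-76951578) encodes the amidotransferase that carries out the committed step of purine synthesis. DMSO libraries had 114, 115 and 115 CPM, and PROTAC FAK Degrader 1 libraries had 60.6, 59.8 and 62.2 CPM, a log2 fold change of −0.91 ± 0.034. With GSK215 the levels were 90.5, 86.8 and 88.2 CPM (−0.38 ± 0.033), and with BSJ-04-146 they were 84.5, 85.7 and 83.7 CPM (−0.44 ± 0.033). The mean level was thus 53.1% of that in DMSO with PROTAC FAK Degrader 1, 77.2% with GSK215 and 73.8% with BSJ-04-146. A further row of the table also carries the name *Ppat*. Its identifier, ENSMUSG00000001755, belongs in GENCODE M21 to *Coasy*, an enzyme of coenzyme A synthesis. That row had a log2 fold change of 0.74 with PROTAC FAK Degrader 1, opposite in sign to *Ppat*, and was left out.

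*Paics* (ENSMUSG00000029247, plus strand, chr5:76951307-76967509), whose product carries out the carboxylase and succinocarboxamide synthetase steps of the same pathway, starts head to head with *Ppat*. The DMSO libraries had 308, 308 and 305 CPM and those of PROTAC FAK Degrader 1 had 289.8, 296 and 293 CPM, a log2 fold change of −0.067 ± 0.032, which turned to 0.015 when libraries were scaled by their totals and not by TMM. GSK215 gave 247, 253 and 256 CPM (−0.28 ± 0.032) and BSJ-04-146 gave 277, 271 and 248 CPM (−0.21 ± 0.032). For the head-to-head pair, the log2 fold changes were thus −0.91 (*Ppat*) and −0.067 (*Paics*) with PROTAC FAK Degrader 1. They were −0.38 and −0.28 with GSK215, and −0.44 and −0.21 with BSJ-04-146. The annotated genes overlap by 272 bases on opposite strands (chr5:76951307-76951578), and the strand setting of the counting is not given in the sources used here, so reads from that stretch cannot be told apart. *Impdh2* shares 48 bases with *Ndufaf3* in the same way (130 to 247 counts per library for *Ndufaf3*), and *Gart* and *Umps* overlap the antisense genes *Gm15964* (37 to 90 counts) and *Gm15829* (4 to 17 counts).

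**Figure D3:**
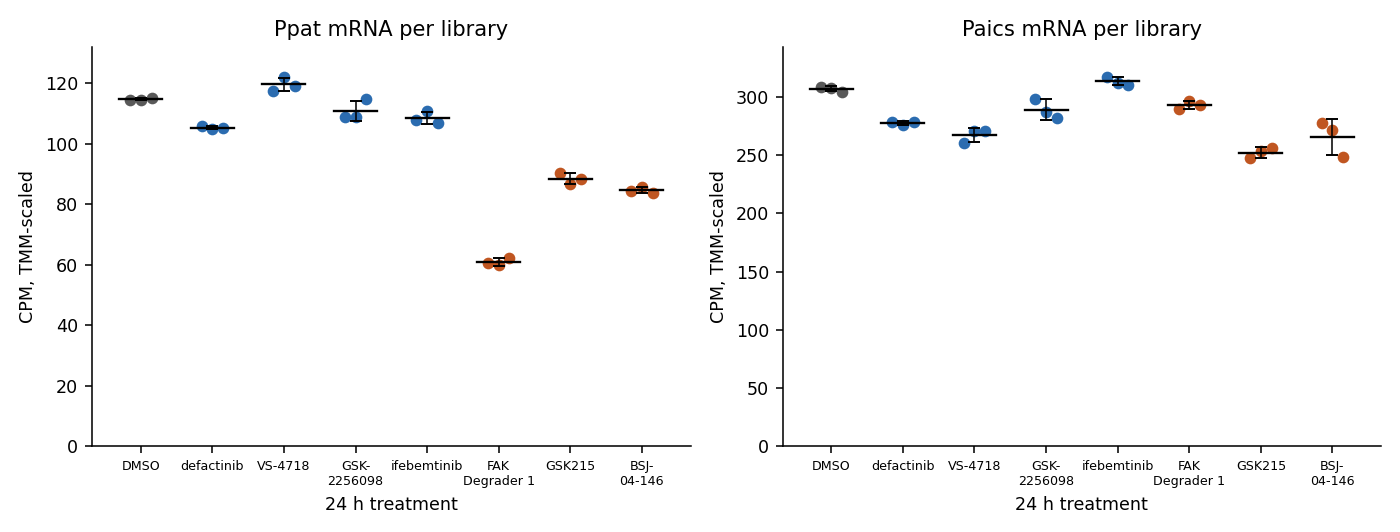
*Ppat* (left) and *Paics* (right) in each library (points; CPM from TMM-scaled library sizes, axes from 0), with the mean and SD of 3 libraries (bars). With PROTAC FAK Degrader 1, *Ppat* sits between 59.8 and 62.2 CPM against 114 to 115 CPM in DMSO, while *Paics* sits between 289.8 and 296 CPM against 305 to 308 CPM.

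*Gart* (ENSMUSG00000022962, minus strand, chr16:91621186-91646952) encodes the enzyme for the glycinamide ribonucleotide steps, including a formyl transfer from folate. It had 283, 273 and 283 CPM in DMSO, 152, 151 and 148 CPM with PROTAC FAK Degrader 1 (−0.90 ± 0.029), 184, 185 and 189 CPM with GSK215 (−0.58 ± 0.029) and 185, 192 and 189.9 CPM with BSJ-04-146 (−0.56 ± 0.029). *Atic* (ENSMUSG00000026192, plus strand, chr1:71557150-71579631), which closes the purine ring, had 463, 458 and 461 CPM in DMSO. It fell to 321, 338 and 318 CPM with PROTAC FAK Degrader 1 (−0.50 ± 0.030), 281, 274 and 279.7 CPM with GSK215 (−0.73 ± 0.031) and 289, 279 and 272 CPM with BSJ-04-146 (−0.72 ± 0.031). For both genes, the 9 PROTAC libraries lay below the DMSO libraries. *Impdh2* (ENSMUSG00000062867, plus strand, chr9:108560286-108565584), the rate-limiting enzyme toward guanine nucleotides, was also lower in all 9. Its levels were 316, 316 and 322 CPM in DMSO, 261, 256 and 248 with PROTAC FAK Degrader 1 (−0.32 ± 0.028), 212, 216 and 215 with GSK215 (−0.57 ± 0.029) and 211, 219 and 207 with BSJ-04-146 (−0.58 ± 0.029).

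Among pyrimidine enzymes, *Cad* (ENSMUSG00000013629, plus strand, chr5:31054780-31078479) encodes the protein that carries out the opening steps of the pathway. It had 612, 627 and 616 CPM in DMSO and 342, 328 and 328 CPM with PROTAC FAK Degrader 1 (−0.89 ± 0.041). With GSK215 there were 393, 406 and 413 CPM (−0.62 ± 0.041) and with BSJ-04-146 380.3, 389 and 435 CPM (−0.62 ± 0.041). *Cad* thus reached at most 435 CPM in any PROTAC library and at least 612 CPM in every DMSO library. *Umps* (ENSMUSG00000022814, minus strand, chr16:33954782-33967038), which makes uridine monophosphate, had 155, 151 and 150.02 CPM in DMSO and 76.4, 74.2 and 72.9 CPM with PROTAC FAK Degrader 1, or 49.1% of the DMSO mean (−1.03 ± 0.035). GSK215 gave 113, 112 and 118 CPM (−0.41 ± 0.034) and BSJ-04-146 gave 115, 115 and 116 CPM (−0.39 ± 0.034).

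*Dhodh* (ENSMUSG00000031730, minus strand, chr8:109591343-109608673) encodes the mitochondrial enzyme that links the pathway to the respiratory chain. Its DMSO libraries had 49.0, 42.1 and 46.5 CPM. With PROTAC FAK Degrader 1 they had 51.6, 51.2 and 47.9 CPM (0.14 ± 0.054), overlapping DMSO. GSK215 gave 33.4, 35.3 and 34.8 CPM (−0.40 ± 0.057) and BSJ-04-146 gave 33.5, 37.8 and 30.7 CPM (−0.43 ± 0.058). With PROTAC FAK Degrader 1, *Dhodh* thus overlapped DMSO, whereas *Cad* and *Umps*, which act before and after it in the pathway, lay below DMSO in every library. *Ctps* (ENSMUSG00000028633, minus strand, chr4:120539868-120570276), which converts uridine to cytidine triphosphate, had 202, 206 and 206 CPM in DMSO, 163, 162 and 161 with PROTAC FAK Degrader 1 (−0.34 ± 0.030), 140.1, 143 and 137 with GSK215 (−0.55 ± 0.031) and 142, 141 and 135 with BSJ-04-146 (−0.55 ± 0.031). As with *Atic* and *Impdh2*, all PROTAC libraries were below DMSO.

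Promoter sequence is shown for *Gart*, *Atic*, *Cad*, *Umps* and *Ctps*. Each lay below DMSO in all 9 PROTAC libraries on TMM-scaled levels, as did *Ppat*, *Paics* and *Impdh2*. Shown are the 150 bases ending just before the gene's annotated start in RefSeq. They come from the RefSeq promoter table of build GRCm38.p6, which held 8 of the 10 members and not *Xdh* or *Dhodh*. Bases run 5′ to 3′ on the gene's strand, and capitals mark 3 promoter motifs found on either strand. These are the E-box, spelled CACGTG, the binding motif of NF-Y, spelled CCAAT, and the GC box, which is spelled GGGCGG.
*Gart*, chr16:91646973-91647122, minus strand: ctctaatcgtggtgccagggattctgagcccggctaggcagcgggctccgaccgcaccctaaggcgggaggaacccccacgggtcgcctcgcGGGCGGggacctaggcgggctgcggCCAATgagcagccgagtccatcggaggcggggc
*Atic*, chr1:71557006-71557155, plus strand: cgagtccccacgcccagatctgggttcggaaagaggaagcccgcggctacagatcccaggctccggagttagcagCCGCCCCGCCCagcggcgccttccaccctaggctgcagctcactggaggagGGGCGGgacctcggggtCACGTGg
*Cad*, chr5:31054630-31054779, plus strand: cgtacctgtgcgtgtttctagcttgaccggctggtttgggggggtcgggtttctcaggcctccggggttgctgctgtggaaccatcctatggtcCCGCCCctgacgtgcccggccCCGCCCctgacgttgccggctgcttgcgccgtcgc
*Umps*, chr16:33967039-33967188, minus strand: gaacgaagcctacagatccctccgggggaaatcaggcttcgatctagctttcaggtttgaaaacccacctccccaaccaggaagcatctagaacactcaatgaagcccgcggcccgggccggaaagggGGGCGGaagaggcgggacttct
*Ctps*, chr4:120570277-120570426, minus strand: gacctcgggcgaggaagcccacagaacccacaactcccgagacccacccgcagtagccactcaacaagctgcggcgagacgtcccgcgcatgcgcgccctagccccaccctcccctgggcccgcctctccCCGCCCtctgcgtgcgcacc

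CACGTG, which reads the same on both strands, was in the windows of *Atic* and *Impdh2*, 2 of the 9 windows of the 8 members, and in 4.3% of all 32851 windows of this length. CCAAT was in those of *Gart* and *Paics*, and in 24.5% of all windows. GGGCGG was in 7 of the 9 windows and in 28.6% of all windows. The windows without it were that of *Impdh2* and a further one of *Ctps*, before another start of the gene, at chr4:120569460-120569609 on the minus strand. Counted by gene, GGGCGG was in 7 of the 8 members and in 31.3% of 27025 genes. CACGTG was in 2 of the 8 members and 4.92% of genes, and CCAAT in 2 and 27.7%. These shares are over every gene with a RefSeq window, not only the genes tested here, so they give no share among expressed genes. The motifs do not overlap each other in the printed windows except for GC boxes that share bases in *Atic*. A match describes letters, not a site that is used.

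The same 2 pairs of drugs at matched doses were compared for the synthesis enzymes, and other pairs at 1 μM were not. GSK215 and BSJ-04-146, both at 0.1 μM, differed by −0.075 to 0.063 on the log2 scale across the 9 enzymes. The 95% intervals were −0.074 to 0.052 for *Atic*, −0.074 to 0.092 for *Cad*, −0.11 to 0.15 for *Dhodh*, −0.14 to −0.0078 for *Paics* and −0.0078 to 0.13 for *Ppat*. Libraries overlapped for 8 of the 9, with *Ppat* above in every GSK215 library. PROTAC FAK Degrader 1 against defactinib, both at 1 μM, gave differences from −0.87 ± 0.035 for *Umps* (95% interval −0.95 to −0.80) to 0.25 ± 0.054 for *Dhodh* (95% interval 0.14 to 0.36). *Paics* and *Dhodh* were higher with PROTAC FAK Degrader 1 than with defactinib in every library, and each other enzyme was lower in every library. The share of all genes that separated in this way was not counted for either pair, so nothing is read from the overlap of libraries here.

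With the kinase inhibitors, the log2 fold changes of the 9 enzymes lay between −0.44 and 0.060. VS-4718 gave its lowest value for *Dhodh*, at 32.7, 33.8 and 34.3 CPM (−0.44 ± 0.055), followed by *Atic* at 366, 361 and 374 CPM (−0.33 ± 0.030) and *Impdh2* at 266, 265 and 261 CPM (−0.27 ± 0.028). *Ppat* and *Umps*, by contrast, were slightly higher than DMSO in every VS-4718 library, with 0.060 ± 0.031 and 0.059 ± 0.032. With library totals their log2 fold changes were 0.098 and 0.097, where the median over all genes was 0.043. Defactinib gave log2 fold changes from −0.20 (*Ctps*) to −0.062 (*Cad*), with libraries overlapping DMSO for *Cad* and *Dhodh* and below DMSO for the others. With GSK2256098 they ranged from −0.19 (*Impdh2*) to −0.0022 (*Umps*) and with ifebemtinib from −0.10 (*Atic*) to 0.051 (*Dhodh*). The medians for defactinib, VS-4718, GSK2256098 and ifebemtinib were −0.15, −0.20, −0.089 and −0.048.

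The scaling of libraries bears on these values. Scaled by library totals, the median over all genes moved from 0.021 to 0.14 for GSK215 and from 0.018 to 0.13 for BSJ-04-146. The log2 fold changes of the 9 enzymes were then −0.61 to −0.16 with GSK215 and −0.61 to −0.10 with BSJ-04-146, or, relative to that median, −0.75 to −0.30 and −0.74 to −0.23. For PROTAC FAK Degrader 1, the median moved to 0.086 and the enzymes ranged from −0.94 (*Umps*) to 0.22 (*Dhodh*). Of all genes, 6190 were then raised and 2867 lowered with GSK215, where TMM scaling gave 4407 and 4379. The same scaling raised 6018 and lowered 2966 with BSJ-04-146 (4451 and 4320 with TMM), and it raised 6280 and lowered 4458 with PROTAC FAK Degrader 1 (5484 and 5257 with TMM).

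The other genes of the pathways were tested, in lists that were also chosen with earlier results known. Of 77 genes in 9 lists, 69 had enough counts. Of the 69, PROTAC FAK Degrader 1 raised 24 and lowered 39, GSK215 raised 11 and lowered 44, and BSJ-04-146 raised 14 and lowered 37. In percent of the 69, these are 34.8 raised and 56.5 lowered, 15.9 and 63.8, and 20.3 and 53.6, to be set beside the shares of all genes given above. Their median log2 fold changes were −0.30, −0.27 and −0.18, beside medians of 0.0045, 0.021 and 0.018 over all genes. With library totals alone, the numbers raised and lowered were 25 and 37, 16 and 37, and 21 and 32.

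Among 12 other genes of purine synthesis, PROTAC FAK Degrader 1 raised 3 and lowered 9, and GSK215 and BSJ-04-146 each raised 1 and lowered 10. Of the kinase inhibitors, VS-4718 raised 2 and lowered 9, GSK2256098 raised 1 and lowered 9, defactinib lowered 8, and ifebemtinib raised 1 and lowered 3. *Prps2*, which makes the activated ribose phosphate, fell from 113 ± 4.99 CPM in DMSO to 61.3 ± 2.64 CPM with PROTAC FAK Degrader 1 (−0.88 ± 0.039 on the log2 scale, edgeR adjusted p = 5.10e-22). *Pfas*, which acts between *Gart* steps, fell by 0.85 with that drug (edgeR adjusted p = 7.69e-25), and *Impdh1*, the paralog of *Impdh2*, changed by −0.79, −0.88 and −0.84 with the 3 PROTACs. *Adssl1*, an adenylosuccinate synthase of the purine nucleotide cycle known from muscle, went the other way. It rose from 32.6 ± 1.92 CPM to 144 ± 6.60, 72.1 ± 1.72 and 101 ± 1.62 CPM, with adjusted p = 2.44e-33, 3.79e-23 and 1.79e-28, and was also raised with VS-4718 (0.20), GSK2256098 (0.29) and ifebemtinib (0.55) but lowered with defactinib (−0.18), a call lost without DMSO replicate 1 (edgeR adjusted p = 0.0676).

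Of the 4 other pyrimidine genes, *Nme1* and *Nme2*, nucleoside diphosphate kinases of closely similar sequence whose reads may not be fully separable, were lowered by all 3 PROTACs. The log2 fold changes were −1.06, −0.34 and −0.27 for *Nme1* and −0.44, −0.77 and −0.66 for *Nme2*. *Ctps2* was raised by all 3 (0.37 ± 0.045, 0.37 ± 0.045 and 0.53 ± 0.045, adjusted p = 2.65e-09, 5.15e-09 and 4.92e-13), where its paralog *Ctps* had −0.34, −0.55 and −0.55. *Cmpk1*, the kinase for uridine and cytidine monophosphates, was lowered by PROTAC FAK Degrader 1 (−0.13) and GSK215 (−0.28), with −0.063 for BSJ-04-146. The call with PROTAC FAK Degrader 1 was lost with library totals (−0.053, edgeR adjusted p = 0.41) and without DMSO replicate 2 or 3 or PROTAC FAK Degrader 1 replicate 2 or 3 (0.0505 to 0.182).

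Around *Xdh*, 11 of 14 genes of purine breakdown and salvage were tested. In this list PROTAC FAK Degrader 1 raised 2 and lowered 8, GSK215 raised 2 and lowered 6, and BSJ-04-146 raised 4 and lowered 4. With library totals alone, GSK215 raised 3 and lowered 4, and BSJ-04-146 raised 4 and lowered 3, with its median turning from −0.031 to 0.077. *Aox1*, an aldehyde oxidase related to xanthine dehydrogenase that uses the same cofactor, rose from 3.44 ± 0.671 CPM to 8.60 ± 0.832, 9.37 ± 0.202 and 12.2 ± 0.278 CPM, with log2 fold changes of 1.34, 1.46 and 1.83 (adjusted p = 3.54e-11, 8.87e-12 and 5.15e-15). The row that the table names *Pnp*, for the phosphorylase that releases the base which xanthine dehydrogenase oxidizes, was lowered by all 3 (−0.74, −0.23 and −0.14), as was *Adk*, which returns adenosine to the nucleotide pool (−0.84, −0.36 and −0.32). The identifier of the *Pnp* row, ENSMUSG00000021871, is named *Gm49342* in GENCODE M21, which gives *Pnp* to an overlapping gene, so the row is uncertain. With library totals, this row with BSJ-04-146 was at −0.032 (edgeR adjusted p = 0.559). *Ampd2*, an adenosine monophosphate deaminase, was lowered by PROTAC FAK Degrader 1 (−0.65) and raised by BSJ-04-146 (0.12), with 0.069 for GSK215. Among the kinase inhibitors it was raised by VS-4718 (0.32) and defactinib (0.10) and lowered by ifebemtinib (−0.16), the call with defactinib being lost without the low-count filter and without DMSO replicate 1, 2 or 3 or defactinib replicate 2 or 3.

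The molybdenum cofactor genes, whose products make the cofactor or use it, were tested as 6 genes. PROTAC FAK Degrader 1 raised 5 and lowered 1, with *Mocs1*, for the opening step of cofactor synthesis, at 14.0 ± 0.492 CPM in DMSO and 31.1 ± 3.00 CPM (1.15 ± 0.070, adjusted p = 1.33e-17). *Mocs2* and *Suox*, sulfite oxidase, were also raised (0.60 and 0.83), and *Mocs3* was lowered (−0.66). GSK215 and BSJ-04-146 each raised 2 and lowered 1 of the 6, with *Mocs1* at 0.32 and 0.46. With library totals alone GSK215 raised 3 and BSJ-04-146 raised 4, and with DESeq2 they raised 1 and 2.

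**Figure D4:**
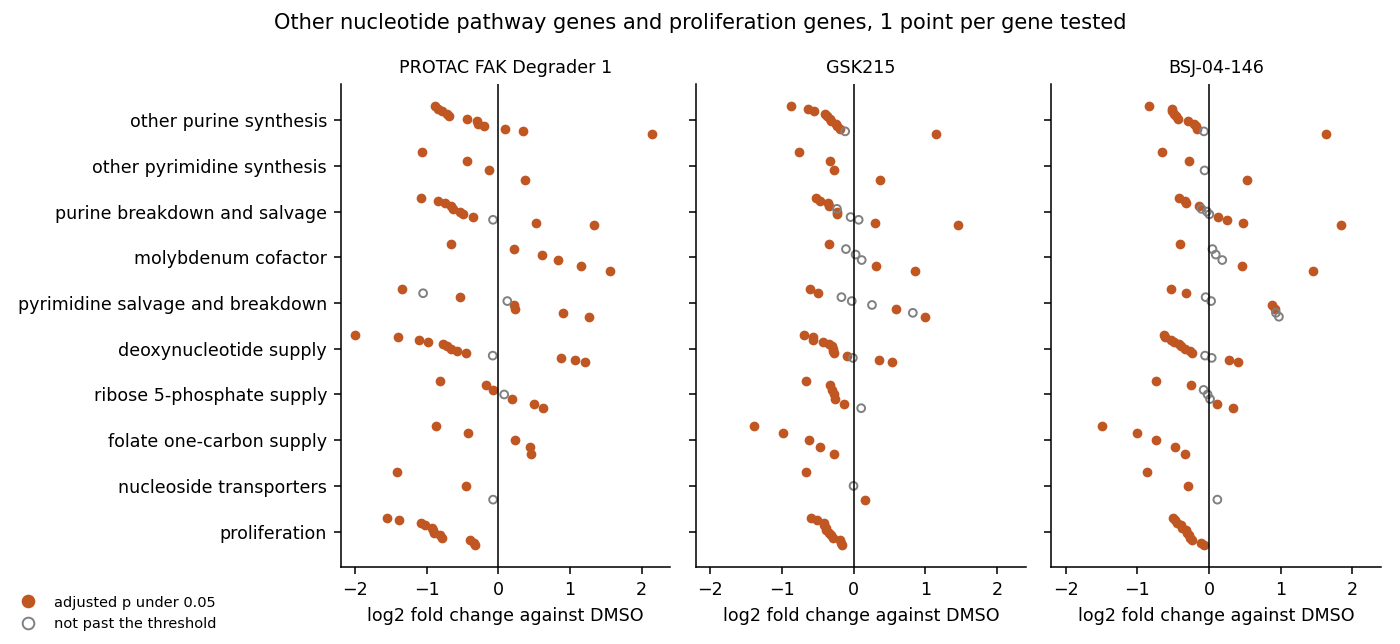
Log2 fold change against DMSO (horizontal axis) of each tested gene in the 9 lists of nucleotide metabolism and in a list of proliferation genes, for the 3 PROTACs, with filled points where the edgeR adjusted p was under 0.05. Genes of the folate list lie on both sides of 0 with PROTAC FAK Degrader 1 and all below 0 with GSK215 and BSJ-04-146.

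The 5 folate one-carbon genes, which supply formyl groups to *Gart* and *Atic*, went in different directions. GSK215 and BSJ-04-146 lowered all 5, with medians of −0.63 and −0.75. PROTAC FAK Degrader 1 raised 3 and lowered 2. *Mthfd2*, a mitochondrial folate enzyme, had 213 ± 6.53 CPM in DMSO, 293 ± 12.2 with PROTAC FAK Degrader 1 (adjusted p = 8.51e-16), 80.9 ± 2.42 with GSK215 (adjusted p = 6.23e-29) and 75.7 ± 2.25 with BSJ-04-146 (adjusted p = 9.13e-30). *Shmt2* and *Mthfd1l*, also mitochondrial, had the same directions, with log2 fold changes of 0.44, −0.98 and −0.999 for *Shmt2* and 0.24, −0.63 and −0.75 for *Mthfd1l*. The cytosolic *Mthfd1* was lowered by all 3 (−0.87, −0.46 and −0.48). Of the kinase inhibitors, VS-4718 lowered 4 of the 5, GSK2256098 lowered 3, defactinib lowered 1 and ifebemtinib raised 1, *Mthfd1l* (0.12), a call lost without ifebemtinib replicate 3 (edgeR adjusted p = 0.0625). *Mthfd2* was lowered by VS-4718 (−0.73) and GSK2256098 (−0.40), with −0.014 for defactinib and 0.071 for ifebemtinib.

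Of 13 genes that supply deoxynucleotides for DNA, PROTAC FAK Degrader 1 raised 3 and lowered 9, GSK215 raised 2 and lowered 10, and BSJ-04-146 raised 2 and lowered 9. VS-4718 raised 2 and lowered 6, defactinib lowered 6, GSK2256098 lowered 4 and ifebemtinib lowered 1. *Rrm2*, the regulated subunit of ribonucleotide reductase, fell from 254 ± 2.81 CPM to 63.3 ± 0.643 CPM with PROTAC FAK Degrader 1 (−2.00 ± 0.031, adjusted p = 1.50e-36), and its log2 fold change was −0.69 with GSK215 and −0.63 with BSJ-04-146. *Tyms*, thymidylate synthase, was lowered by all 3 (−1.41, −0.30 and −0.24). *Tk1*, the thymidine kinase of dividing cells, had −1.10, −0.10 and −0.056, the last of which did not pass, while *Tk2*, its mitochondrial counterpart, was raised by all 3 (1.21, 0.53 and 0.40). With library totals alone, GSK215 raised 3 and lowered 8 of the 13, and *Tk1* with GSK215 went to 0.027 (edgeR adjusted p = 0.498), a call also lost without DMSO replicate 2 or GSK215 replicate 1 or 2.

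Beside these, 12 genes of proliferation were lowered by each PROTAC, 12 of 12 in each case, with medians of −0.91, −0.37 and −0.32. With library totals alone, 12, 9 and 10 were lowered. *Mcm4*, part of the replicative helicase, changed by −1.55, −0.41 and −0.38, and *Pcna*, the replication clamp, by −1.39, −0.29 and −0.12, the last of which did not pass with library totals (edgeR adjusted p = 0.787). *Mcm3* and *Mcm5*, of the same helicase, had −1.08 and −1.03 with PROTAC FAK Degrader 1. Kinase inhibitors also lowered genes of this list. VS-4718 raised 1 and lowered 9 of the 12 (2 and 7 with library totals), and defactinib raised 1 and lowered 8. Ifebemtinib lowered 2 and GSK2256098 lowered 0. The part of cell number or cycling in the levels of the synthesis enzymes was not tested.

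In the remaining lists, PROTAC FAK Degrader 1 raised 3 and lowered 3 of 7 genes for ribose 5-phosphate supply, GSK215 lowered 6, and BSJ-04-146 raised 2 and lowered 2. With library totals alone, GSK215 raised 1 and lowered 5 of the 7, and BSJ-04-146 raised 4 and lowered 2. *Tkt*, transketolase, was raised by PROTAC FAK Degrader 1 (0.63 ± 0.034, adjusted p = 4.15e-19) and lowered by GSK215 (−0.33 ± 0.035, adjusted p = 2.84e-10), and *Rpia*, which makes ribose 5-phosphate, was lowered by GSK215 and BSJ-04-146 (−0.67 and −0.74). *Pgd* and *Pgls*, of the oxidative pentose phosphate pathway, were lowered (−0.82) and raised (0.50) by PROTAC FAK Degrader 1. Of 8 tested genes of pyrimidine salvage and breakdown, PROTAC FAK Degrader 1 raised 4 and lowered 2, and GSK215 and BSJ-04-146 each raised 2 and lowered 2. *Uck2*, uridine-cytidine kinase, was lowered by all 3 (−0.53, −0.50 and −0.53) and its relative *Uckl1* was raised by all 3 (1.27, 0.59 and 0.87). *Tymp*, thymidine phosphorylase, was lowered by PROTAC FAK Degrader 1 (−1.34) and BSJ-04-146 (−0.32). Scaled by library totals, BSJ-04-146 raised 3 and lowered 1 of these 8, and *Tymp* was at −0.21 (edgeR adjusted p = 0.117). The call of *Tymp* with BSJ-04-146 was also lost without BSJ-04-146 replicate 1 or 3 or DMSO replicate 3 (0.078 to 0.094). Of 3 tested nucleoside transporters, *Slc29a2* was lowered by all 3 PROTACs (−1.41, −0.67 and −0.86) and *Slc29a1* by PROTAC FAK Degrader 1 (−0.45) and BSJ-04-146 (−0.29). *Slc29a3* was raised by GSK215 (0.16, adjusted p = 0.0184), a call lost without the low-count filter (adjusted p = 0.0845) and without GSK215 replicate 1 (0.139) or DMSO replicate 3 (0.0579).

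With the kinase inhibitors, the numbers raised and lowered among the 69 genes came to 13 and 29 with VS-4718, 2 and 23 with defactinib, 5 and 8 with ifebemtinib and 1 and 25 with GSK2256098. Those lowered make up 42.0%, 33.3%, 11.6% and 36.2% of the 69, beside 18.9%, 11.0%, 6.85% and 6.09% of all genes. The medians in that order were −0.057, −0.078, 0.010 and −0.064. The 13 raised with VS-4718 became 8 without DMSO replicate 2 or VS-4718 replicate 1. The 25 lowered with GSK2256098 became 16 without DMSO replicate 2 and 15 without GSK2256098 replicate 3, and the 8 lowered with ifebemtinib became 5 without DMSO replicate 2. The 5 raised with ifebemtinib became 3 without ifebemtinib replicate 3 and 9 with library totals or with only the 6 libraries compared. The 2 raised with defactinib became 1 without DMSO replicate 2 or 3, and 0 without DMSO replicate 1 or defactinib replicate 2 or 3 by edgeR, each with 4 at an unadjusted p under 0.05, while DESeq2 on all libraries called 3, library totals gave 5 and only the 6 libraries compared gave 4. *Upp1*, uridine phosphorylase, had its largest change with VS-4718 (−0.74 ± 0.106, adjusted p = 3.52e-07).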

How the data were processed

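MS03 cells were profiled by poly(A)-selected RNA sequencing in 24 libraries of 8 groups. The authors deposited raw counts, whole numbers of reads per gene and library for 49315 Ensembl genes, without normalization. Per the submitters' processing notes, Trimmomatic 0.36, STAR 2.5.2b, featureCounts and Subread 1.5.2 were used with GRCm38. The annotation and strand setting are not given in the sources used here. Columns were matched to treatments by library number. Coordinates and exon lengths are from GENCODE M21.

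A quasi-likelihood model of all 24 libraries was fitted with edgeR 4.0.16 in R 4.3.3, after filterByExpr and TMM scaling, leaving 16 residual degrees of freedom. Two-sided *P* values were Benjamini-Hochberg adjusted over the 16070 genes that passed the filter (threshold 0.05). SE was obtained as the absolute log2 fold change over the square root of F. The fit was tested on simulated data with known changes. Alternatives used DESeq2 1.42.0, limma 3.58.1 (limma-trend), library totals, no low-count filter, a replicate block, only the 6 libraries compared, and single libraries left out. CPM per library used TMM-scaled totals. Named genes were the 10 members, up to 4 genes per list with the largest change past the threshold at a mean of at least 5 CPM, and the 5 genes closest to *Xdh*.

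The members and lists were chosen with earlier results of these data known. Replicate pairs differed by more than counting noise (chi-square per degree of freedom 1.73 to 8.48, 24 pairs), and none was counted as a copy. Not every marker gene is reported here by name.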

Additional observations from a re-analysis of the deposited data

How the results depend on the processing

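The log2 fold changes of *Xdh* kept their direction under all alternatives and moved by more than their replicate spread only with limma-trend on log2(CPM + 4), to 0.55 (VS-4718), 0.29 (GSK2256098), 0.22 (ifebemtinib), 1.91 (PROTAC FAK Degrader 1), 2.02 (GSK215), 2.49 (BSJ-04-146) and 1.83 (PROTAC FAK Degrader 1 against defactinib), since a pseudocount of 4 compresses levels near 3 CPM. Of the 63 log2 fold changes of synthesis enzymes against DMSO, library totals moved 35 beyond their replicate spread, left 27 within it and reversed 1, *Paics* with PROTAC FAK Degrader 1 (−0.067 to 0.015).

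Among the 69 other nucleotide genes tested, calls raised with defactinib numbered 5 with library totals, 4 with only the 6 libraries compared and 0 without the low-count filter (edgeR; 4 at an unadjusted p under 0.05, and 3 by DESeq2 with the filter). With single libraries left out they ranged from 0 to 2 (0 without DMSO replicate 1 or defactinib replicate 2 or 3, each with 4 at an unadjusted p under 0.05). Calls raised with ifebemtinib numbered 9 both with library totals and with only the 6 libraries, and with GSK2256098 2 with only the 6 libraries. Leaving out libraries gave 8 to 13 raised with VS-4718, 15 to 20 lowered with GSK2256098, and 3 to 5 raised and 5 to 7 lowered with ifebemtinib. The cause of these shifts was not tested. Counts for the 3 PROTACs stayed within 1.5 times under every alternative, and with the drug of its largest change, each of 39 named genes kept its call except *Slc29a3* with GSK215. Of all calls of named genes, library totals ended 1 of 37 with PROTAC FAK Degrader 1 (*Cmpk1*), 1 of 32 with GSK215 (*Tk1*, to 0.027), 3 of 30 with BSJ-04-146 (*Pcna*, *Pnp* and *Tymp*), 1 of 24 with VS-4718 (*Mcm4*), 1 of 13 with GSK2256098 (*Adk*), and none of 17 with defactinib or 10 with ifebemtinib.

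No pairing by replicate number was seen in the levels (correlations of deviations −0.17 to 0.0999 over 21 pairings). Of 21 drug libraries, 5 correlated best with the DMSO library of their number. The labels do not say whether replicates were paired. With a replicate block, *Xdh* changed by 2.91, 3.04 and 3.58 with the 3 PROTACs, and companion counts were 24 raised and 39 lowered, 11 and 44, and 14 and 37.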
